A study of Sus scrofa with 13 samples.

Results

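The complement system genes described here are those of a list of 33 genes, sorted by role, whose symbols were looked up in the gene name column of the deposited count table. A row was found for 28 of the 33 genes, and C4BPA had 2 rows, which gave 29 rows of the 35670 genes in the table. CD46, CD55 and CD59, the membrane regulators of the list, and the receptor genes C3AR1 and ITGAX had no row under their symbol and are not analysed here as members. All 29 rows passed the filter on low counts, as did 16481 genes in all. The rows hold 7 genes of the classical pathway, 3 of the lectin pathway, 4 of C3 and the alternative pathway, 7 of the terminal pathway, 7 rows of 6 plasma regulators and 1 receptor.

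Complement is a set of plasma proteins, most of them made by hepatocytes, that mark cells and debris by a cascade of proteases. C1q with C1r and C1s opens the classical pathway and MBL with the MASPs the lectin pathway, both cleave C4 and C2, and all routes meet at C3, which factor B and factor D amplify on surfaces. C5 to C9 then build a membrane pore, plasma and membrane regulators keep the cascade off host cells, and the small fragments C3a and C5a call in leukocytes. C1q differs from most other components in that it is made chiefly by macrophages, and in the liver by Kupffer cells. In ischemia and reperfusion injury complement is known to be activated on damaged tissue.

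Liver biopsies of female Yorkshire pigs were sequenced as 13 libraries in 4 groups. Baseline, with no ischemia, has 2 libraries (replicates 1a and 2). Ischemic controls, with 45 min of warm ischemia, 6 h of reperfusion and no cells, have 3. The arterial infusion group and the portal infusion group, with the same ischemia and reperfusion and an infusion of 3 M (M for mega) human mesenchymal stromal cells from bone marrow (BM-MSCs, connective tissue progenitors grown in culture) per kg body weight into the hepatic artery or the portal vein, have 4 each. The infused cells were human and the livers porcine, and no label ties a baseline biopsy to the pig of another library. Values are normalized counts, the read count of a gene divided by the library's DESeq2 size factor. They carry no correction for gene length and are compared only between libraries. Log2 fold changes, standard errors (SE) and p-values come from edgeR's quasi-likelihood test over all 13 libraries, and an adjusted p is the Benjamini-Hochberg value over the 16481 genes.

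Total counts per library were between 18975413 and 35949178. Hepatocyte markers were abundant in every library, with 15 of 15 tested and a summed level between 1203770 and 3487020 normalized counts. On the first principal component, which held 61.5% of the variance over 500 genes, 4 libraries lay apart from the other 9, namely ischemic control 2, arterial infusion 1 and portal infusions 1 and 4. Of the genes tested, 20.8% were at 0 in portal infusion 1, 16.2% in portal infusion 4, 11.7% in arterial infusion 1 and 7.4% in ischemic control 2, against 1.78% to 9.19% in the other 9. Ischemic control 2 held the highest value of several members, so for several of these the value without it is given as well. In bulk tissue, fewer cells of a type and less RNA per cell cannot be told apart.

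The first comparison set the 3 ischemic controls, sampled after 6 h of reperfusion, against the 2 baseline libraries. The study took its baseline biopsies before the vessels were clamped, and no liver without ischemia was sampled at 6 h. In this comparison and the next, ischemia and reperfusion therefore cannot be told apart from the hours of anesthesia and surgery. The 3 C1q chain genes and the alternative pathway genes CFD and CFP had the higher values in controls, and most genes of the plasma components and of the terminal pathway had the lower ones. By edgeR's quasi-likelihood test 0 of 29 member rows had an adjusted p under 0.05, with a smallest adjusted p of 0.978, and 0% of the 16481 genes did. DESeq2 over the same 13 libraries called 6 genes in all and 0 members. At an unadjusted p under 0.05 there were 5 of 29 member rows (C1QA, C1QB, CFD and CFP higher and MASP1 lower), against 4.37% of all genes. In 5 rows every control lay above both baseline libraries, where 14.8% of all genes did so, and in 8 rows every control lay below both, where 16.3% of all genes did so. The median log2 fold change was -0.09 over the 29 rows and 0.00 over all genes tested. Leaving out 1 library moved the median over the rows from -0.28 (without baseline 1a) to 0.12 (without baseline 2), which turned its direction. Without baseline 2 the count at an unadjusted p under 0.05 was 1 row, where 0.699% of all genes passed, and without ischemic control 2 it was 2 rows, where 1.83% did. Without the 4 libraries that lay apart it was 8 rows, where 1724 of 15544 genes passed.

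Over all 11 livers at 6 h against baseline, 1 of 29 member rows had an unadjusted p under 0.05 (MASP1, lower), against 4.78% of all genes. By edgeR's quasi-likelihood test 0 members and 0% of all genes had an adjusted p under 0.05, with a smallest adjusted p of 0.860 over the members, and DESeq2 called 15 genes and 0 members. In 4 rows (C1S, C4A, C8B and CFI) all 11 livers lay below both baseline libraries, where 3.97% of all genes did so. The median log2 fold change over the 29 rows was -0.27, with 18 rows below 0, and that over all genes was -0.01. Leaving out 1 library moved the median over the rows from -0.44 (without baseline 1a) to -0.16 (without ischemic control 1). Without the 4 libraries that lay apart, 6 rows had an unadjusted p under 0.05, all lower at 6 h, where 10.2% of all genes passed and 5.65% did so as lower, namely C1S, MASP1, C3, C8A, C8B and CFI.

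The other comparisons addressed whether infused BM-MSCs, by either route, altered the liver 6 h after reperfusion. All of them with controls, and the comparison of controls with baseline, share the same 3 ischemic control libraries. Their values are therefore set side by side and are not separate evidence. The 8 infused livers had lower values of the 3 C1q chain genes, CFD and CFP than the controls, and these 5 of 29 rows had an unadjusted p under 0.05, against 2.14% of all genes. In 2 rows (C1QA and C1QC) every infused liver lay below every control, where 0.34% of all genes did so. Of the 29 rows 23 had a log2 fold change below 0 and the median was -0.27, against -0.02 over all genes. By edgeR's quasi-likelihood test 0 members and 0% of all genes had an adjusted p under 0.05 (smallest adjusted p over the members 1.00), and DESeq2 called 1 gene and 0 members.

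After arterial infusion 6 of 29 rows (the 3 C1q chain genes, CFD, CFP and MASP2) were lower than in controls at an unadjusted p under 0.05, against 1.57% of all genes. In 4 rows (the 3 C1q chain genes and C3) all 4 livers lay below all 3 controls, where 1.57% of all genes did so. After portal infusion 6 of 29 rows (the 3 C1q chain genes, C7, C4BPA row 2 and C5AR1) were lower at an unadjusted p under 0.05, against 2.79% of all genes. In 4 rows (C1QA, C1QC, C4BPA row 2 and C5AR1) all 4 portal livers lay below all 3 controls, where 2.33% of all genes did so. Between the routes, 1 of 29 rows (C5AR1, higher after arterial infusion) had an unadjusted p under 0.05, against 2.4% of all genes, and in 1 row (C4A) every arterial liver lay below every portal liver, where 0.498% of all genes did so. In each of these 3 comparisons edgeR's quasi-likelihood test gave an adjusted p under 0.05 to 0 members and to 0% of all genes, and DESeq2 over all 13 libraries called 0, 4 and 1 genes, with 0 members among them. Without ischemic control 2 the count at an unadjusted p under 0.05 was 2 rows for arterial and 3 rows for portal infusion against controls, where 1.05% and 3.06% of all genes passed.

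**Figure D1:**
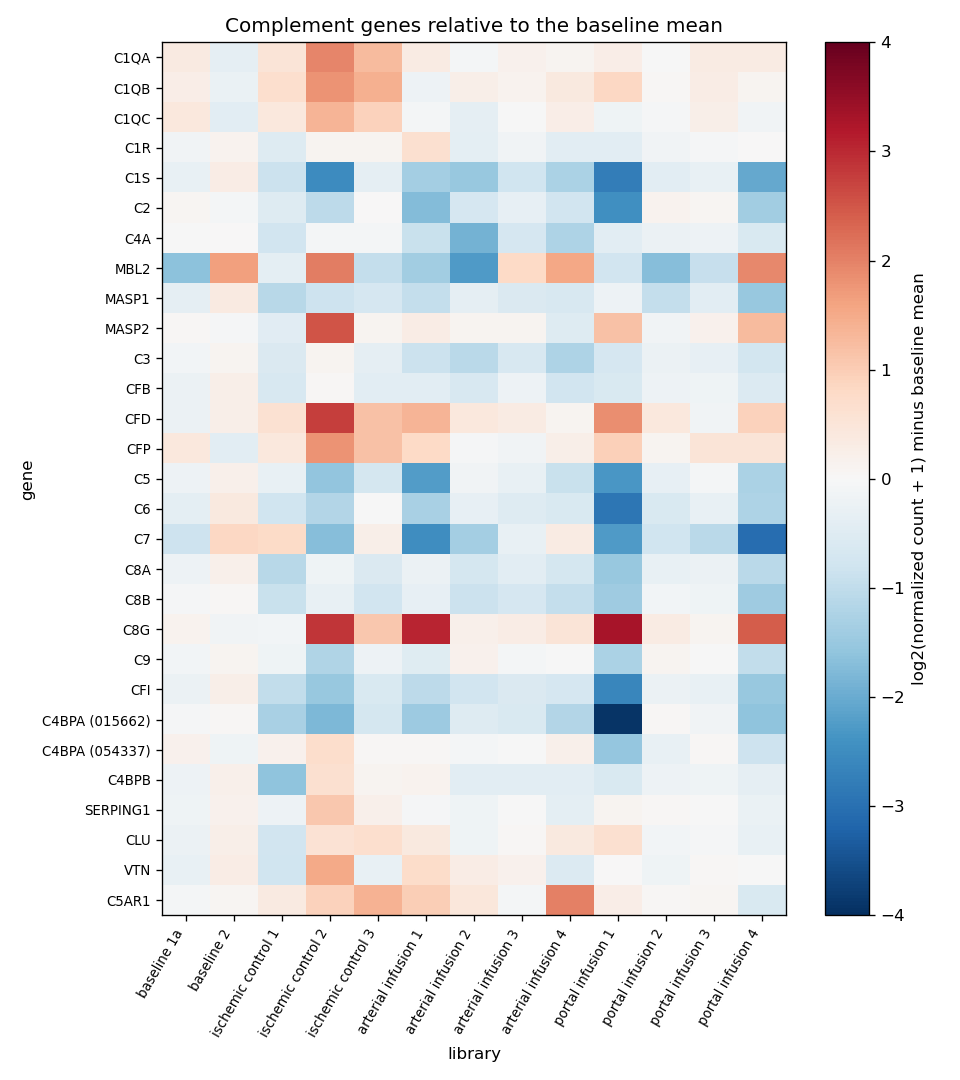
Each row is 1 of the 29 complement rows and each column 1 of the 13 libraries, and the colour is log2(normalized count + 1) minus the mean of the 2 baseline libraries, from -4 (blue) to 4 (red). The C1q chain genes are red in ischemic controls 2 and 3 and nearer the baseline mean in ischemic control 1, which lay just under baseline 1a in C1QC. C8G stands out in red in ischemic control 2, arterial infusion 1 and portal infusions 1 and 4. The C4BPA rows carry the last digits of their identifiers, row 1 above row 2.

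C1QA, C1QB and C1QC encode the 3 chains of C1q, the molecule that binds antibody, apoptotic cells and other targets and so starts the classical pathway. The genes lie next to each other on chromosome 6 of Sscrofa11.1, C1QA at chr6:80586259-80589213 and C1QB at chr6:80601680-80606076, with C1QC between them. They gave the clearest pattern of the list, being higher on average in controls than at baseline and, after infusion by either route, close to the baseline range. Both differences are taken from the same 3 controls, of which ischemic control 1 lay nearest to baseline. C1QA had 6267 and 3874 normalized counts at baseline, and 7108, 18970 and 11901 in the controls. After arterial infusion it had 6185, 4674, 5507 and 5321, and after portal infusion 5910, 4923, 6199 and 6138. Every control lay above both baseline libraries and above all 8 infused livers, and the infused livers lay within a narrow band inside the baseline range.

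The log2 fold change of C1QA was 1.29 (SE 0.45) in controls against baseline, with an unadjusted p of 0.0122, and an exact permutation test of these 5 libraries (two-sided, smallest possible p 0.1) gave 0.2. In infused livers against controls it was -1.18 (SE 0.30), with an unadjusted p of 0.00157 and an exact permutation p of 0.00606, the smallest that 8 against 3 libraries allow. That exact p follows from the lack of overlap and is no separate support. By route the log2 fold change of C1QA was -1.21 (SE 0.36) after arterial and -1.14 (SE 0.36) after portal infusion. The difference from controls without ischemic control 2 was -0.81 with an unadjusted p of 0.0242, and without the 4 libraries that lay apart it was -0.82 with an unadjusted p of 0.0172. The difference of controls from baseline was 0.93 without ischemic control 2, and its largest unadjusted p was 0.144, without baseline 2.

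C1QB had 5373 and 3653 normalized counts at baseline, 7036, 15317 and 11878 in controls, 3855, 5265, 4916 and 5865 after arterial and 7793, 4582, 5457 and 4756 after portal infusion. Only portal infusion 1 among the infused livers reached above the lowest control. C1QB differed by 1.31 (SE 0.45, unadjusted p 0.0101) in controls against baseline and by -1.12 (SE 0.30, unadjusted p 0.00212) in infused livers against controls, where the exact permutation p was 0.0121. Without baseline 2 the unadjusted p of C1QB in controls against baseline was 0.117. C1QC had 8537 and 4779 normalized counts at baseline, 8519, 16382 and 12151 in controls, 6099, 4969, 6386 and 7617 after arterial and 5660, 6165, 7471 and 5782 after portal infusion. The controls overlapped baseline in C1QC, by ischemic control 1 lying just under baseline 1a, and every infused liver lay below every control. C1QC differed by 0.87 (SE 0.44, unadjusted p 0.0668) in controls against baseline and by -0.98 (SE 0.30, unadjusted p 0.00554) in infused livers against controls, with an exact permutation p of 0.00606. As for C1QA, that exact p follows from the lack of overlap. Without the 4 libraries that lay apart the difference of infused livers from controls was -0.65 (unadjusted p 0.0553), and without ischemic control 2 it was -0.77 (unadjusted p 0.0374).

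Between the routes the C1q chain genes differed by -0.07 (C1QA, SE 0.34), -0.15 (C1QB, SE 0.33) and 0.02 (C1QC, SE 0.33) on the log2 scale, arterial minus portal, each smaller than its SE. Summed over the 3 chains, C1q was at 20176 and 12306 normalized counts at baseline, 22663 to 50668 in controls, and 14909 to 19363 in the infused livers. Within a library the ratio of C1QA to C1QC counts was between 0.699 and 1.16 and that of C1QB to C1QC between 0.629 and 1.38 over the 13 libraries, the ends of the latter being baseline 1a and portal infusion 1.

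**Figure D2:**
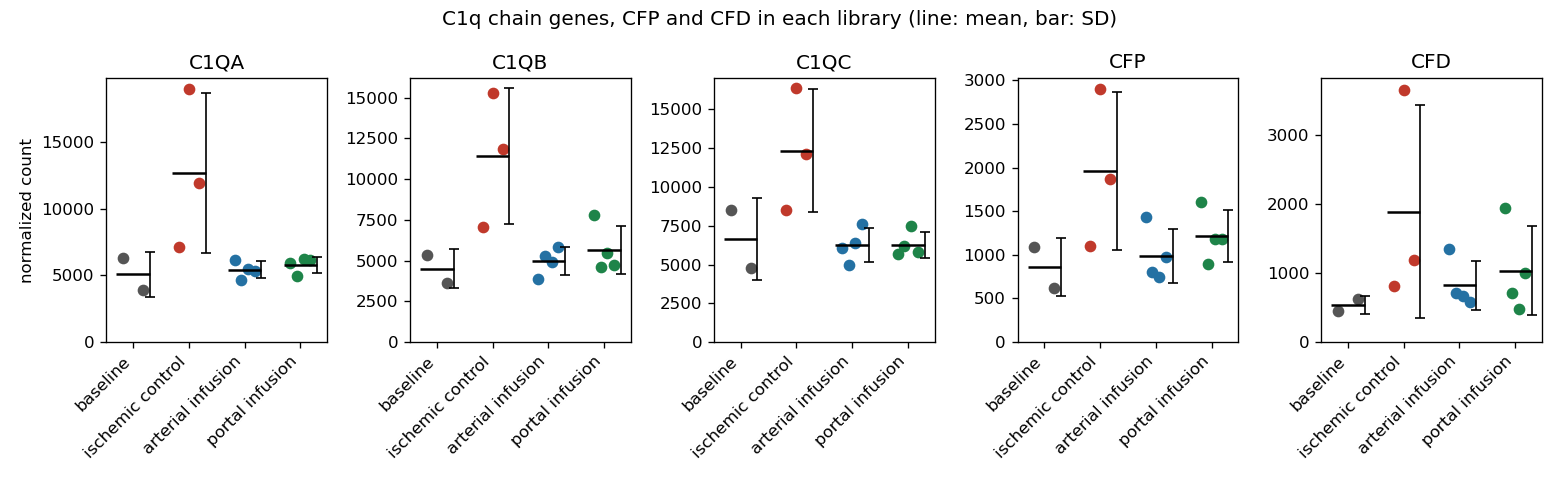
Normalized counts of C1QA, C1QB, C1QC, CFP and CFD in each library (dots), with the group mean (line) and SD (bar), for 2 baseline libraries, 3 ischemic controls and 4 libraries of each infusion route. All infused livers lie below all controls in C1QA and C1QC, and the highest control in each panel is ischemic control 2.

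Because C1q is a macrophage product, macrophage markers were measured beside it. Of 12 markers 10 were tested, CD5L and ADGRE1 not being among them. In controls against baseline 7 of the 10 were above 0, with a median log2 fold change of 0.37. In infused livers against controls 9 of the 10 were below 0, with a median of -0.64. The 1 marker above 0 lay at 1.46, further from 0 than any of the others, with an unadjusted p not under 0.05. Of the 9 below 0 CSF1R, the receptor that macrophages need to survive, differed by -0.99 (SE 0.31, unadjusted p 0.00563). CD14, the endotoxin co-receptor, differed by -0.82 (SE 0.38, unadjusted p 0.0457). The summed level of the 10 markers was between 31066 and 39909 at baseline and between 33479 and 44377 in infused livers. In ischemic controls 1, 2 and 3 it was 45029, 100343 and 41018, so that ischemic control 3 lay within the infused range. By median log2 fold change the macrophage markers lay in the same direction as C1q. MSR1 and TIMD4 were at 0 in at least 1 infused liver, and no marker was at 0 in a control or baseline library. The ratio of summed C1q to summed macrophage markers was 0.396 and 0.506 at baseline, 0.503 to 0.876 in controls and 0.364 to 0.536 in infused livers. The part of the number of macrophages in the C1q values was not tested.

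C1R and C1S encode the proteases bound to C1q, and C4A and C2 the proteins they cleave. C1R was steady, with means of 46792 ± 6880 (SD, n = 2) at baseline, 44166 ± 10346 (n = 3) in controls, 46127 ± 17559.5 (n = 4) after arterial and 42238 ± 5344 (n = 4) after portal infusion. C1S, its partner, was lower in all 11 livers at 6 h than at baseline, with 28352 and 42807 normalized counts at baseline, a median of 14528 at 6 h, and 5085 to 28214 over those livers. Its log2 fold change over all livers at 6 h was -1.10 (SE 0.58, unadjusted p 0.0774) and the exact permutation p was 0.0513 (11 against 2 libraries, smallest possible 0.0128). C1S was picked after its values were seen, so these p-values are descriptive. The lowest values of C1S were in portal infusion 1 (5085), ischemic control 2 (6054) and portal infusion 4 (8340).

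C4A had 50234 and 51163 normalized counts at baseline and 29880, 47842 and 48499 in controls. It had 27526, 13751, 32003 and 21433 after arterial and 37935, 42834, 43692 and 33224 after portal infusion. Every arterial liver lay below every portal liver, and all 11 livers at 6 h lay below baseline. The difference between routes was -0.71 (SE 0.36, unadjusted p 0.0685), arterial minus portal, with an exact permutation p of 0.0286, the smallest that 4 against 4 libraries allow. That exact p follows from the lack of overlap and is no separate support, since C4A was picked after its values were seen. Without the 4 libraries that lay apart, which leaves only portal infusions 2 and 3 on the portal side, the difference was -0.96, with an unadjusted p of 0.0238. C2 ranged from 2282 to 13739 normalized counts over the 13 libraries, with means of 12506 ± 1103 (SD, n = 2) at baseline, 9109.8 ± 3272 (n = 3) in controls and 7836 ± 4226 (n = 8) in infused livers, and groups overlapped.

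In the lectin pathway, MASP1 and MASP2 encode proteases that ride on mannose-binding lectin. MASP1 had 1185 and 1966 normalized counts at baseline, and 703, 856 and 955 in controls, which all lay below baseline. After arterial infusion it had 791, 1193, 1023 and 977 and after portal infusion 1334, 785, 1150 and 537. The log2 fold change of MASP1 was -0.91 (SE 0.42, unadjusted p 0.0483) in controls against baseline, and -0.78 (SE 0.34, unadjusted p 0.0367) over all livers at 6 h. Without baseline 2, the higher of the pair, these were -0.55 (unadjusted p 0.339) and -0.42 (unadjusted p 0.407).

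MASP2 had 3085 and 2878 normalized counts at baseline and 2184, 16966 and 3228 in controls, 3626, 3241, 3234 and 2106 after arterial and 6697, 2706, 3354 and 7200 after portal infusion. The 4 highest values belonged to ischemic control 2, portal infusions 4 and 1 and arterial infusion 1. MASP2 had the largest log2 fold change of the lectin genes in controls against baseline, at 1.27 (SE 0.71, unadjusted p 0.0958), and it was -1.25 (SE 0.57, unadjusted p 0.0442) after arterial infusion against controls. Both values rested on 1 library, since without ischemic control 2 the former was -0.11 (unadjusted p 0.832) and the latter 0.14 (unadjusted p 0.759). MBL2, the mannose-binding lectin gene, was the most variable member, spanning 241 to 4863 normalized counts, a range of 20.1-fold. The baseline pair alone held 373 and 3686, and no group of MBL2 values stood clear of another.

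C3, the protein on which all routes converge, had 373987 and 441611 normalized counts at baseline and 273191, 438519 and 318596 in controls. After arterial infusion it had 222213, 194485, 259225 and 174379, and after portal infusion 257093, 343377, 321343 and 242323. All 4 arterial livers lay below all 3 controls, while the portal livers overlapped them. The log2 fold change of C3 against controls was -0.69 (SE 0.40, unadjusted p 0.109) after arterial infusion, with an exact permutation p of 0.0571 (smallest possible 0.0286), and -0.25 (SE 0.40, unadjusted p 0.543) after portal infusion. Arterial minus portal it was -0.44 (SE 0.38, unadjusted p 0.264). Without the 4 libraries that lay apart, which leaves only portal infusions 2 and 3 on the portal side, it was -0.68 (unadjusted p 0.0333).

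CFB encodes factor B, which joins C3b in the convertase of the alternative pathway. It had 57231 and 79257 normalized counts at baseline, 43480, 69949 and 50090 in controls, 50521, 43640, 58322 and 39317 after arterial and 44016, 58586, 60379 and 45813 after portal infusion. All groups overlapped, and no comparison gave CFB a log2 fold change beyond -0.42 (SE 0.36), which was that over all livers at 6 h against baseline. Over the 13 libraries C3 spanned 2.53-fold and CFB 2.02-fold, and the ratio of their counts within a library varied less, between 4.40 and 6.53. It was 6.53 and 5.57 at baseline, 6.28, 6.27 and 6.36 in controls, 4.40, 4.46, 4.44 and 4.44 after arterial infusion and 5.84, 5.86, 5.32 and 5.29 after portal infusion. The 4 arterial livers thus lay below the other 9 libraries in this ratio, and the controls above all infused livers. This ratio was picked from 10 ratios after its values were seen, and it was not tested.

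CFD encodes factor D, the protease that activates factor B, and is made mostly by fat cells and myeloid cells. It had 447 and 629 normalized counts at baseline, 816, 3648 and 1184 in controls, 1349, 709, 664 and 574 after arterial and 1936, 714, 479 and 1004 after portal infusion. All controls lay above baseline, and infused livers overlapped the controls. CFD differed by 1.77 (SE 0.67, unadjusted p 0.019) in controls against baseline and by -1.04 (SE 0.45, unadjusted p 0.0347) in infused livers against controls. Without ischemic control 2 these were 0.93 (unadjusted p 0.145) and -0.18 (unadjusted p 0.699).

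CFP encodes properdin, which stabilizes the alternative pathway convertase and comes from leukocytes. It had 1095 and 622 normalized counts at baseline, 1106, 2902 and 1874 in controls, 1433, 802, 751 and 972 after arterial and 1605, 890, 1184 and 1184 after portal infusion. Ischemic controls 2 and 3 were the highest of all 13 libraries, and ischemic control 1 lay only just above baseline 1a. CFP differed by 1.16 (SE 0.47, unadjusted p 0.0269) in controls against baseline and by -0.85 (SE 0.32, unadjusted p 0.0196) in infused livers against controls, with an exact permutation p of 0.0485. Without ischemic control 2 the latter was -0.50 (unadjusted p 0.19). Without baseline 2 the former was 0.77 (unadjusted p 0.227).

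Neutrophil markers lay in the same direction as these leukocyte genes. Of 13 markers 9 were tested, and all 9 lay above 0 in controls against baseline, with a median log2 fold change of 1.62. Their summed level was 1300 and 1495 normalized counts at baseline, 1782 to 12963 in controls and 909 to 9911 in infused livers, highest in ischemic control 2, as for CFD and CFP. The neutrophil granule gene MPO was at 0 in at least 1 library of each of these groups and ELANE in at least 1 infused liver. The part of neutrophils in the CFD and CFP values was not tested.

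**Figure D3:**
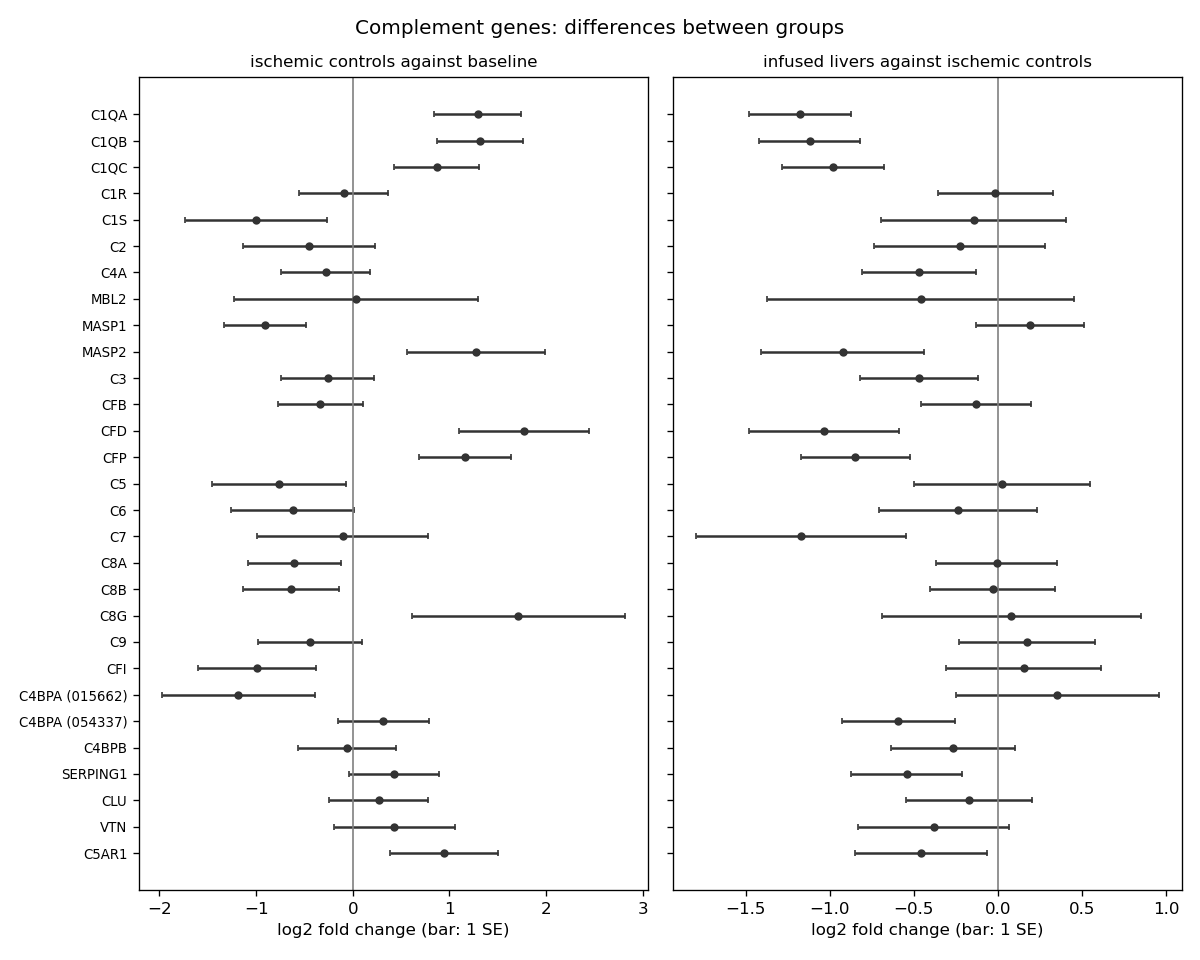
Log2 fold change (dot) with 1 SE (bar) of each of the 29 complement rows from edgeR, for ischemic controls against baseline (left) and infused livers against ischemic controls (right). C1QA, C1QB, CFD and CFP lie above 0 on the left and below 0 on the right, from 1.77 for CFD on the left to -1.18 for C1QA on the right, and no row passed an adjusted p of 0.05. Both panels use the same ischemic controls.

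The terminal pathway genes C5, C6, C7, C8A, C8B, C8G and C9 encode the proteins of the membrane attack complex. In controls against baseline 6 of the 7 lay below 0, with C8G above it, and 0 had an unadjusted p under 0.05. Their median log2 fold change was -0.60 in controls against baseline, -0.66 over all livers at 6 h against baseline and -0.01 in infused livers against controls. C5 had a mean of 15420.2 ± 3138 (SD, n = 2) normalized counts at baseline, 8965 ± 3644 (n = 3) in controls and 9249 ± 4659 (n = 8) in infused livers. C8B had 13328 and 13995 at baseline, against a lowest value of 5054, a median of 8043 and a highest of 12587 over the 11 livers at 6 h. All 11 lay below baseline, the log2 fold change of C8B was -0.66 (SE 0.40, unadjusted p 0.123) and the exact permutation p was 0.0256. C8B was picked after its values were seen, so these p-values are descriptive.

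C8A and C8B encode the linked chains of C8 and stayed in step, with a C8B to C8A ratio between 0.762 and 1.15 in all 13 libraries. C8G encodes the third, lipocalin-type chain of C8 and did not follow them. It had 5932 and 4980 normalized counts at baseline, 5017, 39037 and 11436 in controls, 45225, 6236, 6732 and 7764 after arterial and 53357, 6855, 5882 and 28931 after portal infusion. The 4 high values came from the 4 libraries that lay apart, one or more in each group after ischemia, and the other 9 libraries held between 4980 and 11436. C8G had the largest log2 fold change of the terminal genes in controls against baseline, at 1.71 (SE 1.10, unadjusted p 0.142), and without those 4 libraries it was 0.60 (unadjusted p 0.143).

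C7, which is made also by endothelial and connective tissue cells, had 2623 and 8160 normalized counts at baseline and 7841, 1413 and 5395 in controls, 820, 1804, 3772 and 5868 after arterial and 970, 2673, 2183 and 562 after portal infusion. Ischemic control 2 and arterial infusions 1 and 2 lay within the range of the portal livers, and the highest portal value was above baseline 1a. C7 differed by -1.64 (SE 0.74, unadjusted p 0.0428) in portal livers against controls, with an exact permutation p of 0.171. Without ischemic control 1 this was -1.08 (unadjusted p 0.202). Markers of stellate cells and fibroblasts, of which 8 of 8 were tested, ranged in sum from 8146 to 37821 normalized counts in controls and from 3512 to 10788 in portal livers. In portal livers against controls 6 of these markers lay below 0 and 2 above it, with a median log2 fold change of -1.27. The lowest was COL1A1, a chain of type I collagen, which differed by -2.75 (SE 0.86, unadjusted p 0.00607). The part of such cells in the C7 values was not tested. C6 and C9 overlapped between groups except that all controls lay below baseline in C9, with 29383 ± 3580.4 (SD, n = 2) normalized counts at baseline and 21382 ± 7606 (n = 3) in controls.

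Among the plasma regulators, C4BPA and C4BPB encode the chains of C4b-binding protein, which disarms C4b, and CFI encodes factor I, the protease that then cuts C4b and C3b. The rows of C4BPA, here row 1 and row 2 (ENSSSCG00000015662 and ENSSSCG00000054337), could not be matched one to one with the 2 C4BPA entries of the RefSeq annotation on chromosome 9, and reads of such near copies may be split between them. Row 1 had 10857 and 11540 normalized counts at baseline and 4559, 3248 and 6937 in controls, 4100, 7825, 7267 and 4991 after arterial and 732, 11601, 10235 and 3650 after portal infusion. Of the 11 livers at 6 h only portal infusion 2 reached above a baseline library, and it was the highest of all 13. Row 1 had the largest difference of the regulators in controls against baseline, at -1.18 (SE 0.79, unadjusted p 0.155), with no overlap of the groups.

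Row 2 had 3177 and 2524 normalized counts at baseline and 3193, 4621 and 2949 in controls, 2915, 2662, 2786 and 3236 after arterial and 977, 2327, 2912 and 1594 after portal infusion. All 4 portal livers lay below all 3 controls, the nearest pair of values being 2912 and 2949. C4BPA row 2 differed by -0.88 (SE 0.39, unadjusted p 0.0396) in portal livers against controls, with an exact permutation p of 0.0571, and by -0.22 (unadjusted p 0.463) without the 4 libraries that lay apart. C4BPB, which lies beside C4BPA on chromosome 9, had 2596 and 3513 at baseline, 988, 4742 and 3229 in controls, 3311, 2263, 2230 and 2261 after arterial and 1970, 2645, 2683 and 2365 after portal infusion. Controls spanned the whole range of C4BPB, from its lowest to its highest value.

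CFI was lower in all 11 livers at 6 h, with 16020 and 22086 normalized counts at baseline and a lowest value of 3065, a median of 11016 and a highest of 15924 after reperfusion. The log2 fold change of CFI was -0.99 (SE 0.61, unadjusted p 0.124) in controls against baseline and -0.89 (SE 0.49, unadjusted p 0.0876) over all livers at 6 h, where the exact permutation p was 0.0769. CFI was picked after its values were seen, so these p-values are descriptive. SERPING1, the gene of the C1 inhibitor, CLU, the gene of clusterin, and VTN, the gene of vitronectin, lay the other way or near 0, at 0.42 (SE 0.46), 0.27 (SE 0.51) and 0.43 (SE 0.63) in controls against baseline. Without ischemic control 2 these were 0.03, 0.14 and -0.52, so that VTN turned direction. In each of them groups overlapped. The highest SERPING1 and VTN values, 144241 and 331858, were in ischemic control 2, and the highest CLU value, 105100, in ischemic control 3.

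C5AR1 encodes the receptor of C5a on neutrophils and macrophages and was the only receptor row. It had 380 and 421 normalized counts at baseline, 517, 760 and 1047 in controls, 784, 552, 380 and 1605 after arterial and 482, 410, 426 and 260 after portal infusion. The controls lay above baseline, the portal livers lay below the controls and within or near the baseline range, and the arterial livers spread from below every control to above every control. C5AR1 differed by 0.95 (SE 0.56, unadjusted p 0.112) in controls against baseline and by -1.002 (SE 0.45, unadjusted p 0.0427) in portal livers against controls. The exact permutation p of the latter was 0.0286, the smallest that 4 against 3 libraries allow, and it follows from the lack of overlap. Without ischemic control 3 the difference of portal livers from controls had an unadjusted p of 0.15. Arterial minus portal it was 1.09 (SE 0.43, unadjusted p 0.0222) with an exact permutation p of 0.114, and without arterial infusion 4 it was 0.55 (unadjusted p 0.167).

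A further list of 25 genes of complement and its neighbours, such as ficolins, collectins and the chains of complement receptor 3, gave 18 tested genes. In controls against baseline 7 of them lay above 0 and 11 below, with a median log2 fold change of -0.23, and 0 had an unadjusted p under 0.05 by edgeR. In infused livers against controls 8 lay above 0 and 10 below, with a median of -0.17, and 1 had an unadjusted p under 0.05. This was ITGB2, the shared beta chain of complement receptors 3 and 4 on leukocytes. ITGB2 had 1014 and 689 normalized counts at baseline, 1312, 777.5 and 2275 in controls, 917, 699, 647 and 1430 after arterial and 566, 618, 776.5 and 698 after portal infusion. It differed by -0.93 (SE 0.35, unadjusted p 0.0184) in infused livers against controls, with an exact permutation p of 0.0364, and all 4 portal livers lay below all 3 controls.

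Across the members, the difference of controls from baseline went with the span of the gene on the genome, from first to last base of the RefSeq entry (Sscrofa11.1). Of 27 rows with 1 entry, the 7 genes under 5000 bases all lay above 0 and the 9 over 35000 bases all lay below 0. This clean split needed ischemic control 2. Without it, MBL2 (-1.40) and VTN (-0.52) among the short genes lay below 0, and C7 (0.33) among the long ones lay above it. Spearman's rho between span and log2 fold change was -0.714 over these 27 genes, which share the same 5 libraries and are not independent. Over 11907 genes with a span it was -0.306, where 76.1% of the 1158 genes under 5000 bases lay above 0 and 63.1% of the 5254 genes over 35000 bases lay below 0. The short members include the C1q chain genes, CFD, C8G and VTN, and the long ones C3, C5 to C7, C8A, C8B, C9, CFI and MASP1, so gene span and the role of the members cannot be told apart in this list. In infused livers against controls rho was 0.413 over the members and 0.111 over all genes with a span.

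**Figure D4:**
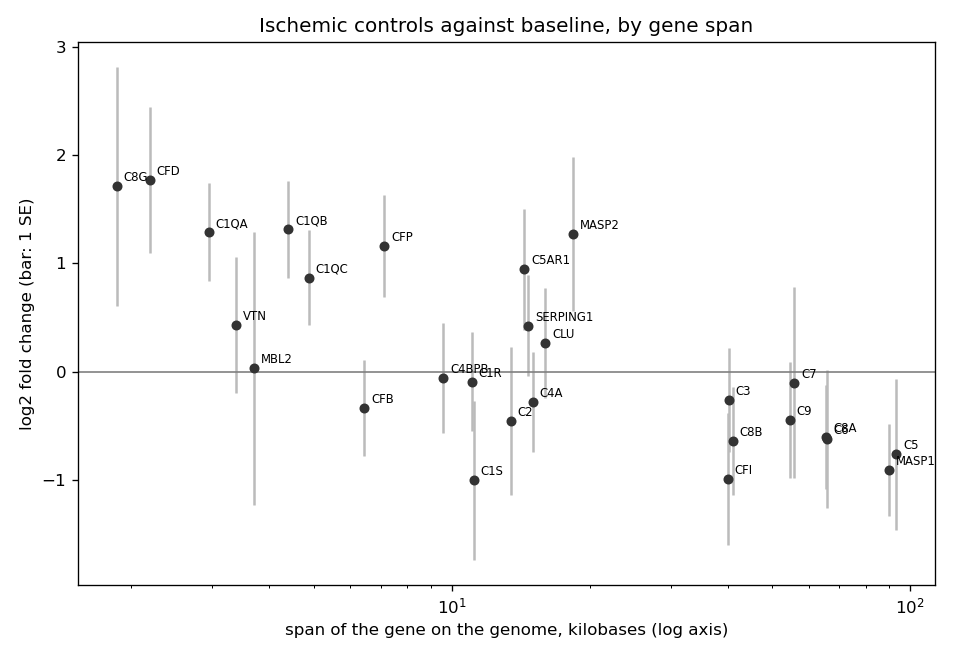
Log2 fold change of ischemic controls against baseline (dot, with 1 SE as a bar) against the genomic span of the gene in kilobases on a log axis, for 27 complement genes with 1 RefSeq entry. The 7 genes under 5 kilobases lie above 0 and the 9 genes over 35 kilobases lie below it. Without ischemic control 2 (not drawn) this did not hold for MBL2, VTN and C7.

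Pairs of genes whose products work together differed in how steady their ratio was from library to library. The C1R to C1S ratio was 8.30 in ischemic control 2, 6.83 in portal infusion 1, 5.65 in portal infusion 4 and 5.30 in arterial infusion 1, and between 1.21 and 2.96 in the other 9 libraries. The CFB to C2 ratio was between 9.55 and 19.3 in those 4 and between 3.99 and 6.76 in the other 9, and the C8G to C8A ratio between 3.17 and 11.07 against 0.313 and 1.23. By contrast the C8B to C8A ratio stayed near 1 throughout. Those 4 libraries held the 4 lowest values of C2, C5, C6, C7, C9, CFI and C4BPA row 1, which is 24.1% of the 29 rows against 10.1% of all genes tested, and the 4 highest of C8G and MASP2, which is 6.9% of the rows against 8.86% of all genes. These libraries were set apart by the data and come from 3 different groups, so their values are given as they are and no test was made.

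**Figure D5:**
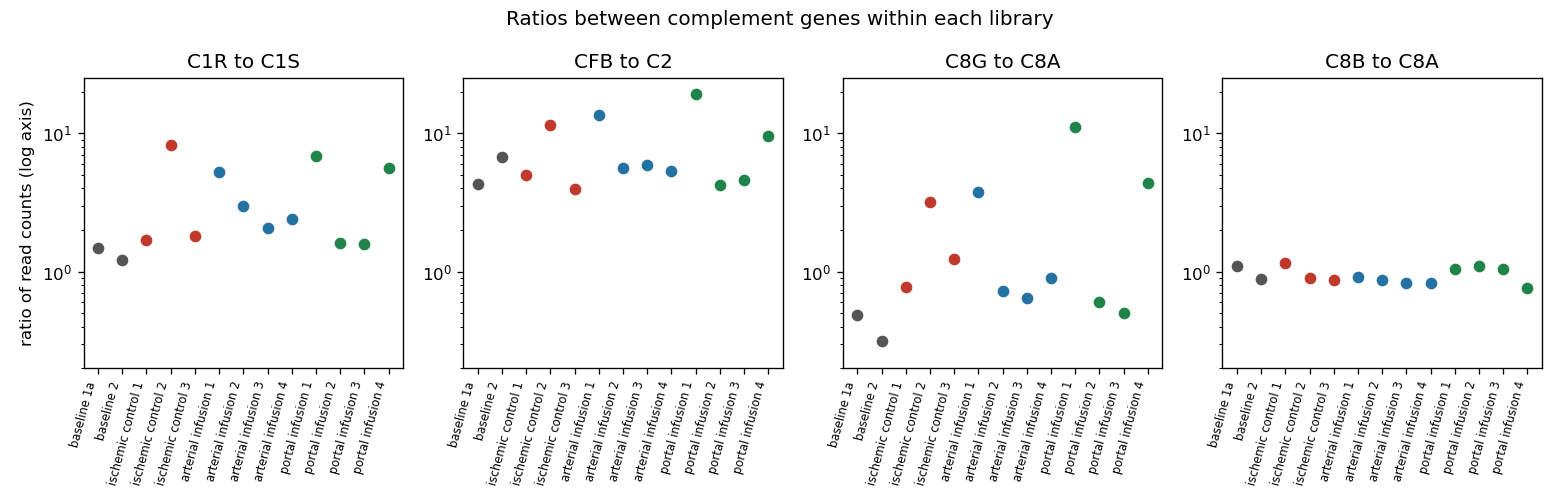
Ratio of read counts of 2 complement genes within each of the 13 libraries, on a log axis, coloured by group. The C1R to C1S, CFB to C2 and C8G to C8A ratios are highest in ischemic control 2, arterial infusion 1 and portal infusions 1 and 4, and the C8B to C8A ratio lies between 0.762 and 1.15 in every library.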

How the data were processed

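RNA of 13 pig liver biopsies was measured. The authors purified poly(A) RNA, made libraries without strand information, filtered the reads, aligned them with HISAT2 to the pig assembly Sscrofa11.1, assigned them to Ensembl genes by FeatureCounts, and deposited the raw count of each gene. Versions and the treatment of multi-mapped reads are not given in the sources used here, and reads of an overlapping gene on the other strand cannot be told apart. For RNA isolation the labels and the sequencing methods name different kits.

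The quasi-likelihood test of edgeR 4.0.16 (in R 4.3.3) was run with 4 group means over 13 libraries, after filterByExpr and TMM. DESeq2 1.42.0 gave size factors and an alternative test. Exact permutation tests (two-sided) used the difference of mean log2(normalized count + 1). The scripts were tested on simulated data. Infused livers are the mean of both route groups, and all livers at 6 h the mean of the 3 groups after ischemia. In the study's principal component plot of the groups after ischemia each point is an individual pig. Whether the baseline biopsies come from pigs of other libraries is not stated. The p-values measure the spread between these samples. The common biological coefficient of variation was 0.7295, and no pair of replicates was a copy of another (smallest chi-square per gene 77.06). Counts are reads, and 3 reads is the limit that a count of 0 allows.

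Values in every library are given for members with an unadjusted p under 0.05 in any comparison, the member with the largest difference in each role class, the C1q chain genes, C3, CFB and the C4b-binding protein genes. C1S, C4A, C8B, CFI and the gene pairs were added after their values were seen. The members and lists were chosen with earlier results of these data known. Spans come from the RefSeq table, matched by symbol. C3AR1 was found by its identifier alone, outside the rule, and its values are given with the other observations. The result of 1 marker gene is not reported here.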

Additional observations from a re-analysis of the deposited data

Results flagged for a closer look

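In groups of 4 libraries, 58 sets of member values were checked for 1 library far from the others by Dixon's ratio (gap to the nearest library over the range), and 3 passed the critical value. Chance flags about 1 in 20 such sets. MBL2 was at 4412.88 normalized counts in portal infusion 4, against 359.583 to 692.216 in the other portal livers (ratio 0.918). C8G was at 45225.1 in arterial infusion 1, against 6235.72 to 7763.67 in the other arterial livers (ratio 0.961). C4BPB was at 3311.18 in arterial infusion 1, against 2230.04 to 2262.72 in the other arterial livers (ratio 0.970). Both libraries belong to the 4 that lay apart on the first principal component.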

How the results depend on the processing

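No member passed an adjusted p of 0.05 under any alternative run. The 24 gene and comparison pairs followed here were those with an unadjusted p under 0.05 by edgeR with all 13 libraries. The alternatives reuse these libraries, so a kept direction is no separate support. Of 550 values of these pairs, 548 kept their direction. The log2 fold change of MASP2 after arterial infusion against controls turned to 0.1385 without ischemic control 2 (-1.678 to 0.1385 over single libraries left out). It turned to 0.08204 without the 4 libraries that lay apart (left out after the data were seen). Libraries with the same replicate number showed no steady likeness (correlations from -0.38 to 0.401, 5 of 16 over 0.1). The deviations of the 2 baseline libraries are mirror images, so these correlations could not decide whether baseline is paired with other libraries. With the replicate block, members with an unadjusted p under 0.05 went from 1 to 3 over all livers at 6 h against baseline and from 1 to 0 between the routes, while over all genes the counts went from 787 to 1213 and from 396 to 189. At 6 h against baseline the members were 2 by DESeq2 (5.59% of all genes) and 3 with no filter (7.78%). Between the routes they were 2 by DESeq2 over all libraries (3.54%) and 2 over the groups compared (2.4%). With at least 10 counts in every library they were 2 between the routes (2.24%). Without the 4 libraries they were 8 in controls against baseline, 6 at 6 h, 3 for arterial infusion against controls (6.38% of all genes) and 6 between the routes, and the median for portal infusion against controls was 0.1547. Without the C1q genes, C5AR1, CFD and CFP the median at 6 h was -0.5742. When single libraries other than baseline were left out, the count ranged from 2 to 6 in controls against baseline (1.83% to 6.37% of all genes). At 6 h it ranged from 0 to 2 (3.49% to 6.4%), and between the routes from 0 to 2 (1.82% to 4.78%). Against controls it ranged from 2 to 7 for arterial (0.942% to 2.65%) and 3 to 6 for portal infusion (2.35% to 3.69%). The median then ranged from -0.5838 to -0.1479 in infused livers, -0.3655 to -0.01029 in arterial and -0.4773 to -0.1058 in portal livers against controls. The ends of the ranges of medians came from leaving out ischemic controls 1 and 2. Causes were not tested. Over all genes edgeR called 0 in each comparison, while DESeq2 over all libraries called 6, 15, 1, 0, 4 and 1 in the order of the report, DESeq2 over the groups compared 173 in controls against baseline and at most 3 elsewhere, and edgeR with no filter 30, 28, 19, 11, 14 and 5. With 2 baseline libraries, tests against baseline could not go below p = 0.1 in an exact permutation test of the controls. For all livers at 6 h the groups compared are all 4, so fits over the groups compared are not separate alternatives.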

Other observations

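C3AR1, the receptor of C3a, carried no symbol in the table and was matched by its identifier ENSSSCG00000023868 alone. It had 368 and 350 normalized counts at baseline, 229, 16 and 246 in controls, 21, 136, 185 and 528 after arterial and 0, 131, 359 and 82 after portal infusion. All controls lay below baseline, the opposite order to C5AR1, with a log2 fold change of -1.10 (SE 1.44, unadjusted p 0.458) by edgeR. The other groups overlapped.

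Without the 4 libraries that lay apart, 6 members had an unadjusted p under 0.05 between the routes, all lower after arterial infusion, where 4.45% of all genes passed and 1.82% did so as lower. They were C1S (-0.81, unadjusted p 0.03), C2 (-0.71, unadjusted p 0.0312), C4A (-0.96, unadjusted p 0.0238), C3 (-0.68, unadjusted p 0.0333), C8B (-0.69, unadjusted p 0.0218) and C4BPA row 1 (-0.72, unadjusted p 0.0399). With all 13 libraries none of these 6 had an unadjusted p under 0.05 between the routes. This way of leaving libraries out was chosen after the data were seen. It leaves arterial infusions 2, 3 and 4 against only portal infusions 2 and 3.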
